A study of Arabidopsis thaliana with 6 samples.

Results

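UDP-glucosyltransferases move glucose from UDP-glucose onto small molecules such as plant hormones, flavonoids, phenolic acids and foreign compounds. The added sugar makes the acceptor more soluble and usually less reactive, and many glucosides are stored in the vacuole. In plant detoxification this conjugation stands beside conjugation to glutathione, after oxidation by cytochromes P450. The probe sets described here were taken by identifier as glucosyltransferases of stress detoxification, and all 6 were found among the 22746 probe sets tested. The identifiers 265499_at and 265501_at stand for the neighbouring genes UGT73B5 (AT2G15480) and UGT73B4 (AT2G15490). The identifier 253268_s_at matches both UGT73B2 (AT4G34135) and UGT73B3 (AT4G34131). The gene table used here names these 3 probe sets and does not list the other 3. The names of those come only from the choice of members: 263231_at as UGT74E2 (AT1G05680), 265200_s_at as UGT73C5 and UGT73C6, and 260567_at as UGT74F2 (AT2G43820). UGT73 enzymes belong to group D of the Arabidopsis family and UGT74 enzymes to group L.

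Arabidopsis cells grown as a mixotrophic culture, which combines photosynthesis with an organic carbon source, were profiled on Affymetrix ATH1 arrays. The PPA1 group (3 arrays) received 75 µM phytoprostane A1, a reactive oxylipin formed without enzymes, and was harvested after 4 h. The control group (3 arrays) was kept for the same 4 h with 0.5% methanol in water. The labels do not say whether the PPA1 group also received methanol, and give no genotype or origin for the culture. The replicates are labelled as independent with no word on how; the p-values cover the spread among these 6 samples, and that spread may be technical. The comparison asks which of these transcripts differ in level once cells have met the oxylipin. In RNA from a whole culture, fewer responding cells and less RNA per cell cannot be told apart. PPA1 replicate 1 stood apart: over bright probe sets (log2 signal averaging 6 or more) its log2 signals correlated with those of the other PPA1 arrays at r = 0.833 and 0.839, against 0.987 between those 2 and 0.908 to 0.958 between control arrays. Calls and counts that change without it are therefore also given that way for the 6 probe sets and for the UGT family.

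Of the 6 probe sets, 5 had higher signals on every PPA1 array than on any control array, and 260567_at (UGT74F2) did not. Over all tested probe sets, 10.8% were separated in this way upward and 20.1% downward. In limma, fitted to log2 signals of all 22746 probe sets with Benjamini-Hochberg adjustment, 3 of the 6 were higher after PPA1 at an adjusted p under 0.05, against 0.809% of all tested probe sets. These were 253268_s_at, 265200_s_at and 265499_at, and 0 of the 6 were lower, with 0.994% of all probe sets called in that direction. At an unadjusted limma p under 0.05, 5 of the 6 were higher and 0 lower, against 8.26% and 14.8% of all tested probe sets. The members were chosen with results of these data known, so these shares describe them and lend no independent support.

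**Figure D1:**
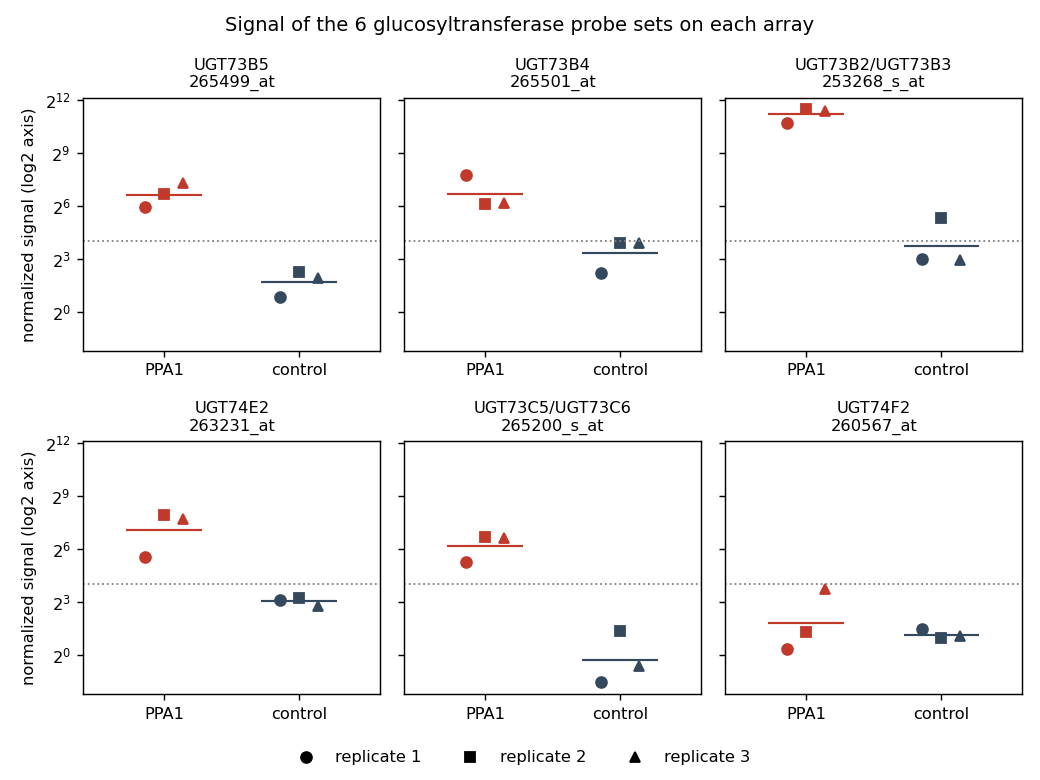
Normalized signal (log2 axis) of the 6 probe sets on each array, PPA1 left and control right in each panel; points are arrays, shapes are replicate numbers, horizontal bars are means of log2 signal (n = 3) and the dotted line marks a signal of 16. All PPA1 points lie above all control points in 5 panels, and the points overlap for 260567_at; the names of 263231_at, 265200_s_at and 260567_at come from the choice of members only.

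The brightest of these probe sets was 253268_s_at, shared by UGT73B2 and UGT73B3. Both encode group D enzymes that can glucosylate flavonols, and the genes lie side by side on chromosome 4. Its signal was 1631, 2812 and 2676 on PPA1 replicates 1 to 3, against 7.90, 39.7 and 7.60 on control replicates 1 to 3. All PPA1 arrays lay far above the controls, the lowest of them 41.1 times the highest control. The mean log2 signal was 11.17 ± 0.44 after PPA1 and 3.74 ± 1.36 in controls (SD, n = 3 each). The log2 change was 7.43 with a 95% confidence interval of 5.68 to 9.18 (limma adjusted p = 0.0238). Blocking on the replicate number, the limma adjusted p was 0.135. As the probe set matches both genes, their separate levels were not measured.

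The second group D probe set with 2 genes was 265200_s_at, given as UGT73C5 and UGT73C6. UGT73C5, listed in the gene table under the symbol DOGT1, glucosylates the fungal toxin deoxynivalenol and brassinosteroids, and UGT73C6 acts on flavonol glycosides and brassinosteroids. The signal was 39.1, 101 and 97.3 on PPA1 replicates 1 to 3, against 0.341, 2.54 and 0.648 on control replicates 1 to 3. The PPA1 arrays were all above the controls, and every control lay close to the low end of the array. The log2 means were 6.18 ± 0.77 after PPA1 and -0.28 ± 1.48 in controls (SD, n = 3 each). The log2 change was 6.46 with a 95% interval of 4.43 to 8.49 (limma adjusted p = 0.0318, and 0.135 with the replicate block).

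UGT73B5 and UGT73B4 are group D enzymes known from plant responses to pathogens and oxidative stress, and UGT73B4 can also glucosylate breakdown products of the explosive TNT. UGT73B5 (265499_at) had signals of 60.6, 102 and 157 on PPA1 replicates 1 to 3, against 1.81, 4.74 and 3.79 on control replicates 1 to 3. The groups were well apart, the lowest PPA1 array being 12.8 times the highest control. Its log2 change was 4.96 with a 95% interval of 3.69 to 6.22 (limma adjusted p = 0.0241, and 0.135 with the replicate block). UGT73B4 (265501_at) had signals of 216, 68.3 and 71.8 on PPA1 replicates 1 to 3, against 4.67, 14.8 and 14.9 on control replicates 1 to 3. Here PPA1 replicate 1 was the highest array, and the groups still did not overlap. The log2 change of 3.33 (95% interval 1.68 to 4.99) did not pass over all probe sets (limma adjusted p = 0.072), nor did 2.79 without PPA1 replicate 1 (limma adjusted p = 0.0515). Between replicates 2 and 3 alone it was 2.24, and it then passed (limma adjusted p = 0.0355), as did 5 of the 6 and 3.38% of all probe sets upward. The annotated spans of these neighbours overlap in the RefSeq table, and how far each probe set also reads the other gene was not tested.

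In group L, 263231_at stood for UGT74E2, an enzyme known to glucosylate the auxin indole-3-butyric acid. Its signal was 46.1, 243 and 211 on PPA1 replicates 1 to 3, against 8.49, 9.45 and 6.96 on control replicates 1 to 3. Controls were tightly grouped, with a ratio of highest to lowest of 1.36, while the PPA1 arrays spanned 5.28-fold because replicate 1 was lower. The log2 change was 4.02 with a 95% interval of 2.36 to 5.68 (limma adjusted p = 0.0533). Without PPA1 replicate 1 it was 4.78, with a limma adjusted p of 0.00463, and 4 of the 6 then passed against 6.32% of all probe sets upward.

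UGT74F2, which makes the glucose ester of salicylic acid, was represented by 260567_at. The signal was 1.26, 2.46 and 13.2 on PPA1 replicates 1 to 3, against 2.78, 1.92 and 2.08 on control replicates 1 to 3. All 6 values were below a signal of 16, the groups overlapped, and only PPA1 replicate 3 stood above the controls. The log2 change was 0.63 with a 95% interval of -1.52 to 2.77 (limma adjusted p = 0.694), without PPA1 replicate 3 it was -0.34 (limma adjusted p = 0.716), and without PPA1 replicate 1 it was 1.35 (limma adjusted p = 0.293). An interval this wide covers both a rise and a fall, so a change of this transcript was not detectable at these signals.

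The size of each difference depended on how low control signals were treated, since 14 of the 15 control signals of the 5 probe sets with separated arrays lay below 16. With every signal under 16 set to 16, a step chosen after seeing the data, the folds were 107 for 253268_s_at, 8.33 for 263231_at, 6.37 for 265501_at, 6.19 for 265499_at and 4.54 for 265200_s_at. On log2 signals as deposited the folds were 173, 16.2, 10.1, 31.0 and 88.1 in the same order of probe sets. The UGT73B2/UGT73B3 probe set thus had the highest fold either way, whereas 265200_s_at was second on deposited signals and last of the 5 with the floor. With 32 added before log2, 4 of the 6 passed (3.29% of all probe sets higher), and the limma adjusted p of 265200_s_at was 0.0191 with a log2 change of 1.69.

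**Figure D2:**
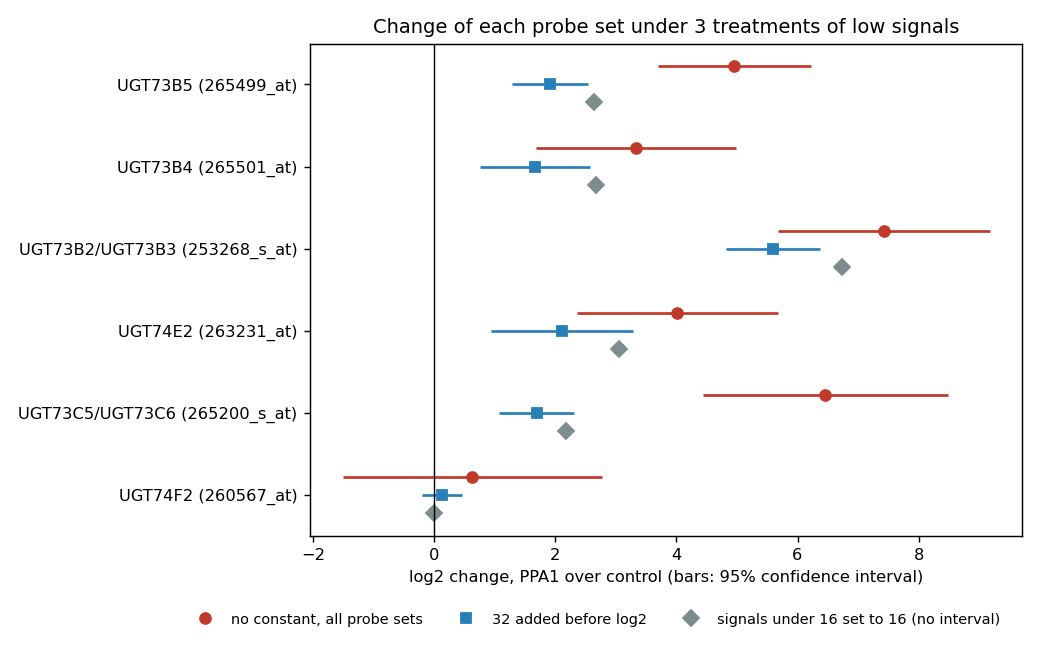
Log2 change (PPA1 over control) of each probe set under 3 treatments of low signals: log2 of deposited signals, 32 added before log2, and signals under 16 set to 16; bars are 95% confidence intervals from limma (6 arrays) and the last treatment has none. For 265200_s_at the change falls from 6.46 to 1.69 with 32 added, and for 253268_s_at from 7.43 to 5.60.

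The fit that left out dim probe sets (mean log2 signal under 4) kept 4 of the 6, because 265200_s_at and 260567_at fell below the limit. All 4 passed as higher there, against 5.39% of 14850 probe sets, with limma adjusted p of 0.00406 for 265499_at and 253268_s_at, 0.0132 for 263231_at and 0.0212 for 265501_at. Probe sets that pass such a limit through their PPA1 signals had to differ, so this count supports nothing by itself. With the replicate block joined to this limit, 3 of these 4 passed (4.11% of 14850 higher) and 265501_at did not (limma adjusted p = 0.0545). With a robust variance trend over all 22746 probe sets, 5 of the 6 passed as higher (3.48% of all), and 5 also passed with the replicate block joined to that trend (3.66% of all). The replicate block in the plain limma fit gave 0 of the 6 and 0.0% of all probe sets, with 5 of the 6 higher at an unadjusted p under 0.05. In the plain fit, leaving out any single array other than PPA1 replicate 1 ended the 3 calls (limma adjusted p from 0.0702 to 0.121). Their log2 changes stayed between 4.55 and 8.22 in those fits.

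The PPA1 arrays differed among themselves in these probe sets. In 253268_s_at, 265200_s_at, 265499_at and 263231_at, PPA1 replicate 1 had the lowest response of the 3 arrays, whereas in UGT73B4 it had the highest. Over the whole array, 1922 probe sets had every PPA1 array above all controls and a PPA1 mean of 6 or more (log2). Among these, replicate 1 was the lowest PPA1 array in 64.9% and the highest in 24.9%, so this order is not particular to the members. Relative to the control mean, UGT73B4 stood at 4.42, 2.76 and 2.83 on PPA1 replicates 1 to 3 (log2), and 263231_at stood at 2.48, 4.89 and 4.68. UGT73B1 (253281_at), which lies next to UGT73B2 and also encodes a flavonol glucosyltransferase, followed UGT73B4, with 3.18, 2.08 and 2.42. Its signals were 495, 232 and 293 after PPA1, against 20.9, 62.1 and 127 in controls, and its log2 change of 2.56 did not pass (limma adjusted p = 0.118), whereas it passed in 4 of 18 alternatives, among them the limit of mean log2 at least 4 (limma adjusted p = 0.0451). Omissions of 1 array under that limit are not among these 18. There it passed without PPA1 replicate 1 (limma adjusted p = 0.0484), without control replicate 3 (limma adjusted p = 0.0434), and in no other omission. The plot of PPA1 replicates holds the 12 UGT probe sets, members included, with a PPA1 mean of 6 or more (log2) and every PPA1 array above all controls. That choice leaves out probe sets whose replicate 1 signal lay at control level, so it shows single probe sets and no share of the family. UGT85A4 (260799_at), with replicate 1 at 24.4 after PPA1 and a control as high as 33.5, was left out in this way.

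**Figure D3:**
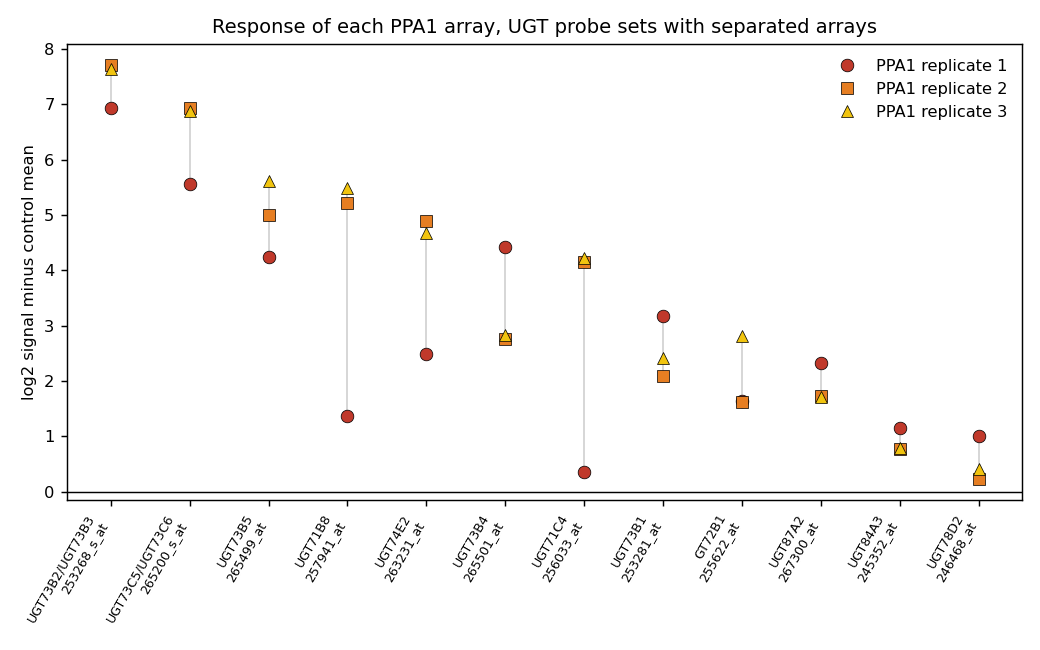
Log2 signal of each PPA1 array minus the control mean for the 12 UGT probe sets with all PPA1 arrays above all controls and a PPA1 mean of 6 or more (log2), ordered by mean change; shapes and colours mark the PPA1 replicates. Replicate 1 is the lowest point for 253268_s_at, 265200_s_at, 265499_at, 257941_at, 263231_at and 256033_at and the highest for 265501_at, 253281_at, 267300_at, 245352_at and 246468_at.

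The wider UGT family gave a setting for these values. The RefSeq gene table lists 64 genes with a UGT family symbol, and 51 probe sets stand for 1 of them alone, UGT73B5 and UGT73B4 included. Among the 49 others, 2 were higher and 0 lower in limma, against 0.809% and 0.994% of all tested probe sets. Their median log2 change was 0.08 where all tested probe sets had -0.21. At an unadjusted limma p under 0.05, 9 of the 49 were higher and 1 lower, against 8.26% and 14.8% of all tested probe sets. Without PPA1 replicate 1, 6 of the 49 were called higher and 1 lower, against 6.32% and 7.51% of all tested probe sets. The lower one was UGT71B1 (257949_at), at a log2 change of -1.75 (limma adjusted p = 0.0203). Its signals were 220, 77.3 and 56.4 after PPA1, against 248, 197 and 226 in controls, and over all arrays the change was -1.17 (limma adjusted p = 0.253). UGT71C2 (266670_at) was among the 6 higher ones, at 2.54 (limma adjusted p = 0.0389), while over all arrays it had 0.84 (limma adjusted p = 0.76). Its signals were 1.73, 49.2 and 72.2 after PPA1, against 5.90, 13.2 and 13.7 in controls. Both were singled out after their values were seen. In 23 of the 49 both group means were under 4 on the log2 scale, where little can be seen.

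Both called relatives rose in all PPA1 arrays. UGT87A2 (267300_at), a glycosyltransferase with a known part in flowering time, had signals of 2027, 1344 and 1321 after PPA1, against 417, 455 and 351 in controls. Its groups were clearly apart at high signals, and the log2 change was 1.92 with a 95% interval of 1.28 to 2.56 (limma adjusted p = 0.0348, and 0.135 with the replicate block). UGT73C1 (265197_at), of the same chromosome 2 cluster as UGT73C6 and known to act on cytokinins, had signals of 12.8, 17.4 and 11.5 after PPA1, against 0.817, 1.72 and 1.78 in controls. The log2 change of 3.34 passed (limma adjusted p = 0.0279, and 0.135 with the replicate block), although 5 of its 6 signals were below 16. Its size rested on control signals near the low end, since with 32 added before log2 the change was 0.46 (limma adjusted p = 0.0321). Leaving out any single array other than PPA1 replicate 1 ended both calls in the plain fit, where no probe set on the array then passed. Once dim probe sets (mean log2 signal under 4) were dropped, UGT87A2 still passed in each of these omissions (limma adjusted p from 0.0288 to 0.0438). UGT73C1 was too dim to enter those fits. In the same cluster UGT73C2 (265198_at, singled out after its values were seen) had signals of 0.997, 1.31 and 1.23 after PPA1, against 3.38, 1.35 and 4.35 in controls, all close to the low end and not called (limma adjusted p = 0.205).

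Some relatives that did not pass in the plain fit over all arrays had far higher signals on PPA1 replicates 2 and 3 than on replicate 1. UGT71B8 (257941_at), close to an enzyme that acts on abscisic acid, had signals of 33.7, 491 and 593 after PPA1, against 8.33, 12.5 and 21.7 in controls (limma adjusted p = 0.129). UGT71C4 (256033_at) had 83.4, 1153 and 1213 after PPA1, against 59.3, 59.5 and 77.4 in controls (limma adjusted p = 0.19). UGT85A4 (260799_at) had 24.4, 196 and 251 after PPA1, against 11.8, 27.4 and 33.5 in controls, so that its groups overlapped (limma adjusted p = 0.239), although each PPA1 array was above the control of the same number. Without PPA1 replicate 1 all 3 passed, at log2 changes of 5.36, 4.19 and 3.33 in that order (limma adjusted p = 0.00945, 0.00471 and 0.0269). These 3 are grouped here by their low replicate 1, so their passes without it lend no support. Of all tested probe sets, 6.32% were called higher in that fit. Over all 6 arrays, UGT71B8 and UGT85A4 passed with the replicate block and the robust variance trend (limma adjusted p = 0.0231 and 0.0291) and with the block and the limit of mean log2 at least 4 (limma adjusted p = 0.0373 and 0.0439). With the block alone they did not (limma adjusted p = 0.158 and 0.169), and UGT71C4 passed in none of these 3 fits (limma adjusted p from 0.0792 to 0.215). UGT71B8 had a control mean log2 signal of 3.715 and met the limit of 4 only through its PPA1 signals. Its pass under that limit thus supports nothing by itself.

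**Figure D4:**
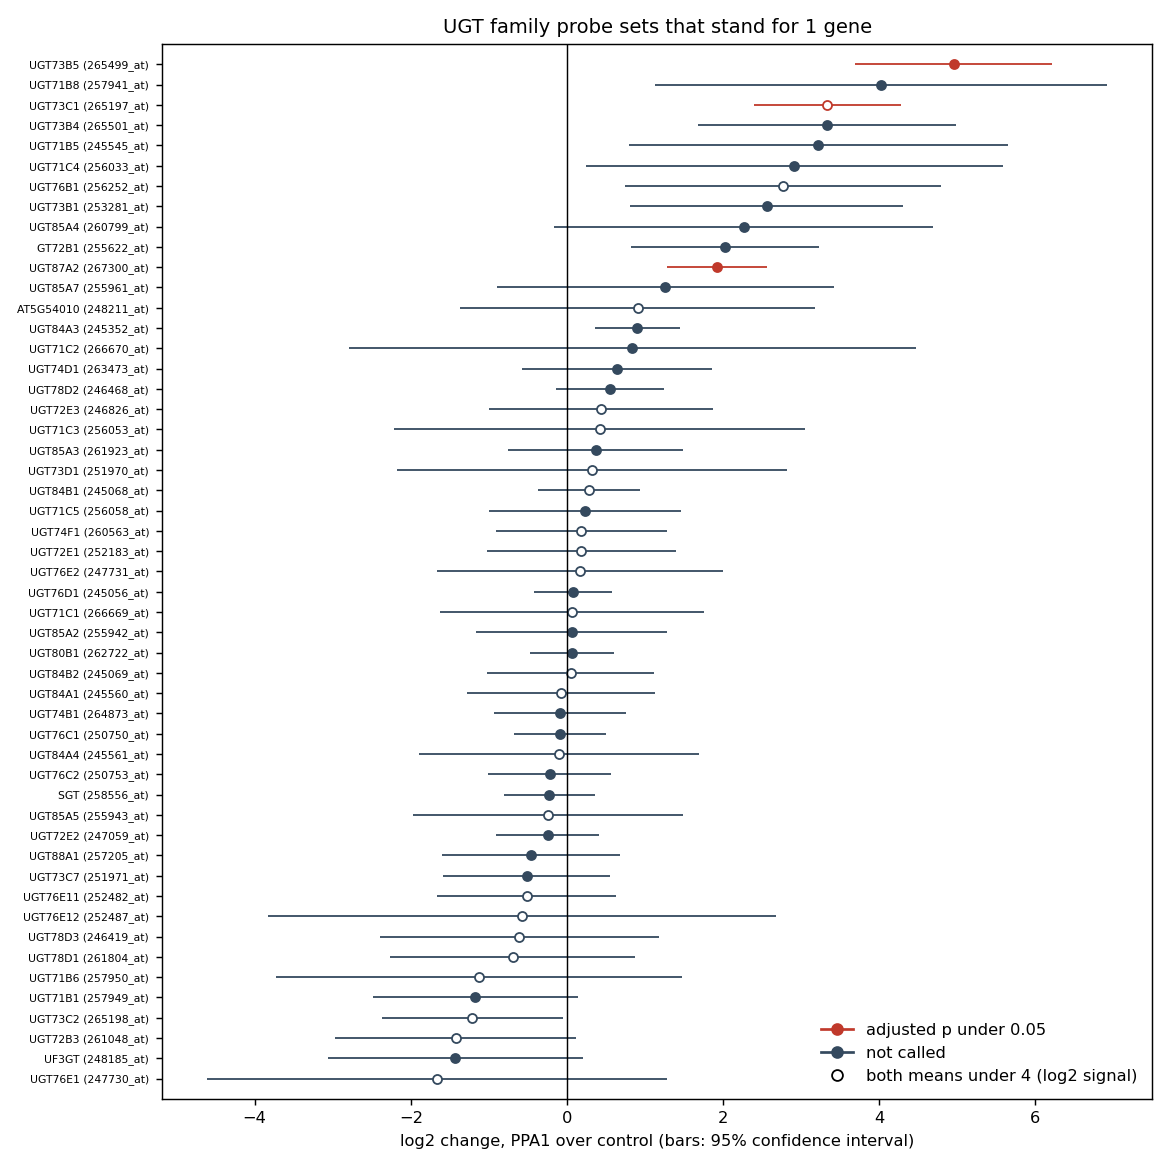
Log2 change (PPA1 over control) with 95% confidence intervals from limma for the 51 UGT family probe sets of 1 gene, ordered by change; red marks an adjusted p under 0.05 over all 22746 probe sets and open circles mark both group means under 4. UGT73B5, UGT73C1 and UGT87A2 are called, and UGT73B4 lies directly below UGT73C1 without a call.

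By subgroup, few probe sets were called, with 0.809% of all tested probe sets called higher and 0.994% lower. At an unadjusted limma p under 0.05 these shares were 8.26% and 14.8%, and 10.8% and 20.1% were separated upward and downward. Both group means were under 4 (log2) in 3 of 5 in group D (without the members) and 5 of 8 in group L. The same held for 3 of 4 for salicylate, 3 of 7 for hormones and 6 of 11 for phenylpropanoids and flavonoids. In group D, beside UGT73B5 and UGT73B4, 5 probe sets stood for 1 gene. Of these 1 was called higher (UGT73C1) and 0 lower, and 2 were separated upward and 1 downward, with a median log2 change of 0.32 where all tested probe sets had -0.21. In group L, with 8 such probe sets, 0 were called in either direction (limma; 1 higher and 0 lower at an unadjusted p under 0.05). Its UGT84A3 (245352_at), which makes glucose esters of hydroxycinnamic acids, had signals of 140, 107 and 108 after PPA1, against 71.4, 56.8 and 61.5 in controls, with no overlap. Its log2 change of 0.90 missed the threshold (limma adjusted p = 0.0973) and passed in 7 of 18 alternatives, such as the limit of mean log2 at least 4 (limma adjusted p = 0.0329), over a range of limma adjusted p from 0.0227 to 0.291. Omissions of 1 array under that limit are not among these 18. There it passed only without PPA1 replicate 1 (limma adjusted p = 0.018). UGT74B1 (264873_at), an enzyme of glucosinolate synthesis, had -0.08 (limma adjusted p = 0.903). Of the salicylate-glucosylating enzymes beside UGT74F2, 4 were measured by a probe set of 1 gene, and 0 were called (limma; 1 higher and 0 lower at an unadjusted p under 0.05). UGT74F1 (260563_at), the neighbour of UGT74F2, was as dim, at 1.16, 2.02 and 1.43 after PPA1 against 2.34, 0.873 and 1.11 in controls. Of 7 hormone-glucosylating enzymes measured by a probe set of 1 gene, 1 was called higher, which was UGT73C1 again, and 0 lower. At an unadjusted limma p under 0.05, 2 of these were higher and 0 lower. Beside UGT73C1 this was UGT71B8, not called at a log2 change of 4.03 (limma adjusted p = 0.129). UGT76C2 (250753_at), which inactivates cytokinins, had a log2 change of -0.22. Of 11 probe sets of 1 gene for phenylpropanoid and flavonoid glucosylation, 0 were called (limma; 2 higher and 0 lower at an unadjusted p under 0.05). Among them UGT78D2 (246468_at), a flavonoid 3-O-glucosyltransferase, had a log2 change of 0.55. The subgroup counts leave out probe sets that match several genes or no listed gene. They therefore miss 253268_s_at (flavonol enzymes UGT73B2 and UGT73B3), called higher at a log2 change of 7.43 (limma adjusted p = 0.0238). Also missed, both given for hormone-glucosylating enzymes, were 265200_s_at, called higher (6.46, limma adjusted p = 0.0318), and 263231_at, not called (4.02, limma adjusted p = 0.0533).

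Likeness between probe sets was measured as the root mean square difference, over the 6 arrays, of log2 signals taken relative to each probe set's own mean. Among the members 253268_s_at and 265200_s_at were the closest pair, at 0.597, and 253268_s_at and 260567_at the farthest, at 3.62. UGT73B5 and UGT73B4 differed by 1.23, although their genes are neighbours. Outside the members, 5885 probe sets of 1 gene averaging 6 or more (log2) in the brighter group were compared. The nearest to UGT73B4 was UGT73B1, at 0.563. The nearest to 253268_s_at and to 265200_s_at was AT1G30700 (263228_at), at 0.84 and 0.623, with a log2 change of 6.30. For 263231_at the nearest were AT5G37670 (249575_at), AT5G51440 (248434_at) and HSA32 (254414_at), a heat stress protein, at 0.37, 0.378 and 0.404. AT5G37670 and HSA32 were also the nearest to UGT73B5, at 0.64 and 0.649. The mean profile of the 6 lay closest to AT5G64250 (247283_at) and Fes1A (259037_at), at 0.516 and 0.576. These are descriptions over 6 arrays that share the contrast of PPA1 with control.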

How the data were processed

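The deposited values are linear intensity values, 1 per probe set; the authors made them with GCRMA, per the submitters' processing notes, and later steps are not stated there. They ran from 0.00178 to 11319.7, with no detection calls, and median signals were 41.9 to 51.0 per array. Log2 was taken with no constant added. After 64 manufacturer control rows were set aside, 22746 probe sets were fitted with limma 3.58.1 in R 4.3.3 (lmFit and eBayes, condition only, two-sided, Benjamini-Hochberg threshold 0.05), a fit tested on simulated data. The number of arrays, 3 per condition, limits the precision. Alternatives varied the scaling, the limit on dim probe sets, the constant before log2, the variance model, array weights, the replicate block and the arrays used. Tables and figures used Python 3.11.15 with pandas 2.3.3 and matplotlib 3.10.9.

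The members, gene lists, tests and alternatives were chosen with earlier results of these data known. The array's gene table pairs 13513 tested probe sets with 1 gene and 503 with several, and does not list 8730; 13436 of the first kind matched the RefSeq table (assembly TAIR10.1), whose symbols and gene order were used. Gene lists and markers for UDP-glucose supply, TGA factors, photosynthesis, seeds, pollen and dividing cells had 0 probe sets so named and were not analysed here. One probe set each was named for the root hair marker EXPA7 (259525_at), the guard cell marker FMA (257247_at) and malonylation (AT5MAT, 256924_at); their log2 changes were -0.55, 0.80 and 0.05, none called, and all their group means were under 4, at most 3.42 after PPA1 and 3.09 in controls. Of the lists, the probe sets called and up to 4 with the largest change among bright ones (mean log2 of at least 6 in the brighter group) were named, plus the 3 nearest profiles to each member and 5 to their mean, not all of which are printed.

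Same-numbered arrays deviated together at correlations of 0.06, 0.03 and 0.02 over the whole array (replicates 1, 2 and 3), and of 0.16, 0.24 and 0.15 over bright probe sets. Whether the numbers mark pairs is not settled by the labels, so results under the replicate block stand beside the calls.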

Additional observations from a re-analysis of the deposited data

How the results depend on the processing

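Counts are given as higher and lower. For the 6 glucosyltransferases, 3 and 0 were called. The replicate block gave 0 higher (limma; 5 of 6 at an unadjusted p under 0.05), and 5 higher with the robust variance trend added. Also 5 higher came from the robust variance trend, array weights, and replicates 2 and 3 alone; 1 higher came from a limit of mean log2 at least 6, where 1 was tested. Leaving out 1 array gave 0 to 4 higher: 4 without PPA1 replicate 1 and 0 without any other array (limma adjusted p of the 3 called ones from 0.0702 to 0.121; 5 of 6 at an unadjusted p under 0.05). With a limit of mean log2 at least 4 those counts were 2 to 4 of 4 tested. Without any array other than PPA1 replicate 1, and with no limit, 0 of all tested probe sets were called in either direction. The log2 change of 260567_at ran from -0.34 (without PPA1 replicate 3) to 1.35 with 1 array left out. For the 49 other UGT probe sets, 2 and 0 were called. Higher counts were 4 with a limit of mean log2 at least 4 or 6 or with 32 added, 5 with the robust variance trend, 9 (1 lower) with array weights, 0 with the replicate block (limma; 10 and 1 at an unadjusted p under 0.05), 6 with block and trend, 5 with block and the limit of 4, and 7 with replicates 2 and 3; leaving out 1 array gave 0 to 6 higher and 0 to 1 lower (with the limit of 4, 1 to 7 and 0 to 1). The log2 change of UGT74B1 (264873_at), uncalled throughout, was 0.13 after median centring and ran from -0.354 to 0.086 with 1 array left out, with or without the limit of 4. Over all tested probe sets 184 and 226 were called, against 801 and 1305 (mean log2 at least 4), 802 and 1046 (at least 6), 748 and 1349 (32 added), 791 and 1171 (trend), 2130 and 3324 (weights), 0 and 0 (replicate block; 1768 and 3032 at an unadjusted p under 0.05), 833 and 1096 (block and trend), 610 and 947 (block and limit), 769 and 640 (replicates 2 and 3), and 0 to 1437 and 0 to 1708 with 1 array left out (110 to 2220 and 93 to 3415 with the limit of 4). Median centring gave 239 and 154, so the share of rises among calls moved with the scaling. The cause of these shifts in count was not tested, and a limit or an omission also leaves fewer probe sets or arrays.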
